A study of Arabidopsis thaliana with 6 samples.

Results

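The SAUR genes (small auxin upregulated RNA) of Arabidopsis thaliana were followed in whole leaves of wild-type Columbia plants grown under normal CO2 (380 ppm) or low CO2 (100 ppm). The members were 58 loci named as SAUR genes, found by locus among the 26402 genes of the deposited table. They were listed by name with results of this contrast already known, so every difference between the CO2 levels is given as a description with no test. Of the 58, 31 lay in 6 tandem clusters (runs of 3 or more neighbouring members on chromosomes 1 to 5) and 27 were dispersed, 4 of them in 2 neighbouring pairs. The study took 3 leaf samples per CO2 level from soil-grown plants 4 weeks old (16 h light, 8 h dark, 21 °C, 70% humidity). The deposited table holds 1 RPKM column per CO2 level (reads scaled to gene length and to sequencing depth) and no column for a single sample, so no value below has a replicate check, an SD or an n.

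SAUR genes encode short plant-specific proteins, and many of them belong to the first transcripts to appear after auxin is given. Auxin binds receptors of the TIR1 and AFB family, Aux/IAA repressors are degraded, and ARF transcription factors switch on their targets, SAUR genes included. The best studied SAUR proteins inhibit phosphatases of the PP2C.D group, which keeps plasma membrane proton pumps (AHA) phosphorylated and active, acidifies the cell wall and lets cells expand. Other SAUR genes respond to light, heat or ageing, and some act in leaf senescence.

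The members have small coding regions, from 261 to 573 bases with a median of 339, against a median of 1044 over all genes with recovered reads, and 55 of the 58 have a single coding exon. A short gene collects few reads: at the depths behind the columns (25429325 reads under normal CO2 and 21887516 under low CO2, recovered from the RPKM values), 1 read on 300 bases is worth 0.131 and 0.152 RPKM. The median member had 24 reads under normal CO2 and 27 under low CO2. The values in parentheses after a ratio are its exact 95% bounds (Clopper-Pearson, from the reads) and cover counting error only. Levels are scaled to coding length, so members of unlike length can be compared, but the scaling does not correct for reads that match several copies.

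Similar copies decide how well reads can be assigned to a member, so a stretch of the most similar cluster is shown first. The 6 genes of the chromosome 5 cluster, SAUR19 to SAUR24, had 87.3% to 95.2% identical coding sequences. The 72 bases below start at coding base 100 of SAUR19 (base 94 of SAUR21), from the RefSeq assembly TAIR10.1, and capitals mark bases that differ from SAUR19.
SAUR19: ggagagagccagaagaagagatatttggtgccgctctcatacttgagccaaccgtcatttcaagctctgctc
SAUR20: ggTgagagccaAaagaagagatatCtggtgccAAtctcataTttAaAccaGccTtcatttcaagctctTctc
SAUR21: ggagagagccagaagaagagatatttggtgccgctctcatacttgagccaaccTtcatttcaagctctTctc
SAUR22: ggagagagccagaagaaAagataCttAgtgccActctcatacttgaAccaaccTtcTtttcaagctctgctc
SAUR23: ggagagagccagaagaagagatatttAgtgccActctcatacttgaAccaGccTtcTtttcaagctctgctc
SAUR24: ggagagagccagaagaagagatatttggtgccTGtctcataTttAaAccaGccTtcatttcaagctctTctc
SAUR21 differs from SAUR19 at 2 of the 72 bases and SAUR20 at 11. Over whole coding sequences, 32.6% of the 50-base windows of SAUR19 occur at another place in the genome, and so do 17.0% of those of SAUR21, 14.3% of SAUR24 and 8.93% of SAUR23. In the chromosome 1 cluster such windows made up 29.97% for SAUR62, 13.1% for SAUR67, 12.5% for SAUR63 and 1.11% for SAUR66. The other 50 members shared no window of this length, and these include all members of the chromosome 2, 3 and 4 clusters. No source used here gives the read length or the treatment of reads with several matches, so single values within the chromosome 1 and 5 clusters are uncertain.

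**Figure D1:**
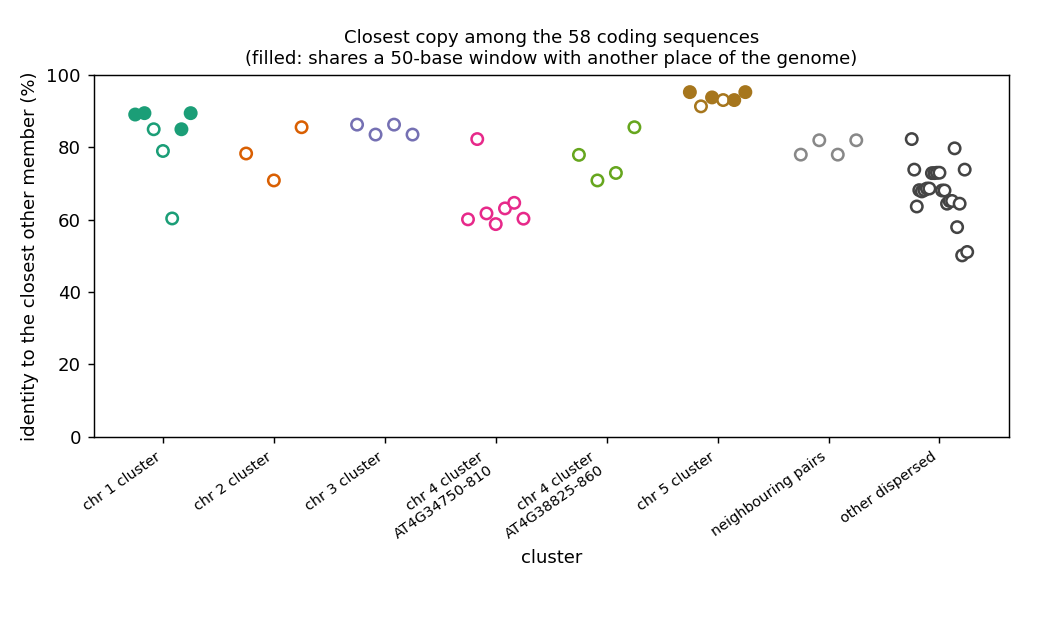
Identity of each of the 58 SAUR coding sequences (points, % of aligned columns) to its closest other member, by cluster. Filled points share a 50-base window with another place of the genome: 4 members of the chromosome 5 cluster and 4 of the chromosome 1 cluster are filled, and the AT4G34 cluster on chromosome 4 lies lowest among the tandem clusters, with 6 of its 7 members at or under 64.6%.

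SAUR genes mostly had higher values under low CO2, 43 of the 58 against 11 with lower values and 4 listed at 0 in both columns. Of all 26402 genes 9558 had higher values, 11452 had lower values and 5392 were listed at 0 in both columns. The difference used is the log2 of (low + 1) over (normal + 1) in RPKM, taken for the 40 members whose mean reached 1 RPKM. Of these 16 were higher by 2-fold or more and 1, SAUR9, was lower by as much. Among all 16563 genes of that level 6.07% passed 2-fold upwards and 11.1% downwards. The upward share of all genes was 5.15% from 1 to 5 RPKM, 5.47% from 5 to 50 RPKM and 8.19% above, and the downward share 13.4%, 10.4% and 11%. The members were chosen with this contrast known, so nothing further is read from the count. The median log2 difference was 0.60 for the counted members and -0.06 for all counted genes. A stricter rule asks that the whole counting interval of the ratio lies beyond 2-fold. By it, 11 of the counted members with recovered reads were higher and none was lower. Among all counted genes with recovered reads 5.05% were higher and 9.52% lower. SAUR39, which the mean of 1 RPKM keeps out of the count, had an interval wholly beyond 2-fold lower. A member that counts only because of its low CO2 value had to differ: SAUR3, SAUR4, SAUR5 and SAUR7 were under 1 RPKM under normal CO2, and with members of at least 1 RPKM under normal CO2 12 were higher. SAUR3 and SAUR7 are also among the 11 that passed the stricter rule. The 2-fold rule lay between SAUR63 at 1.16 and SAUR53 at 0.86. In whole-leaf RNA, fewer cells of a type and less RNA per cell cannot be told apart.

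**Figure D2:**
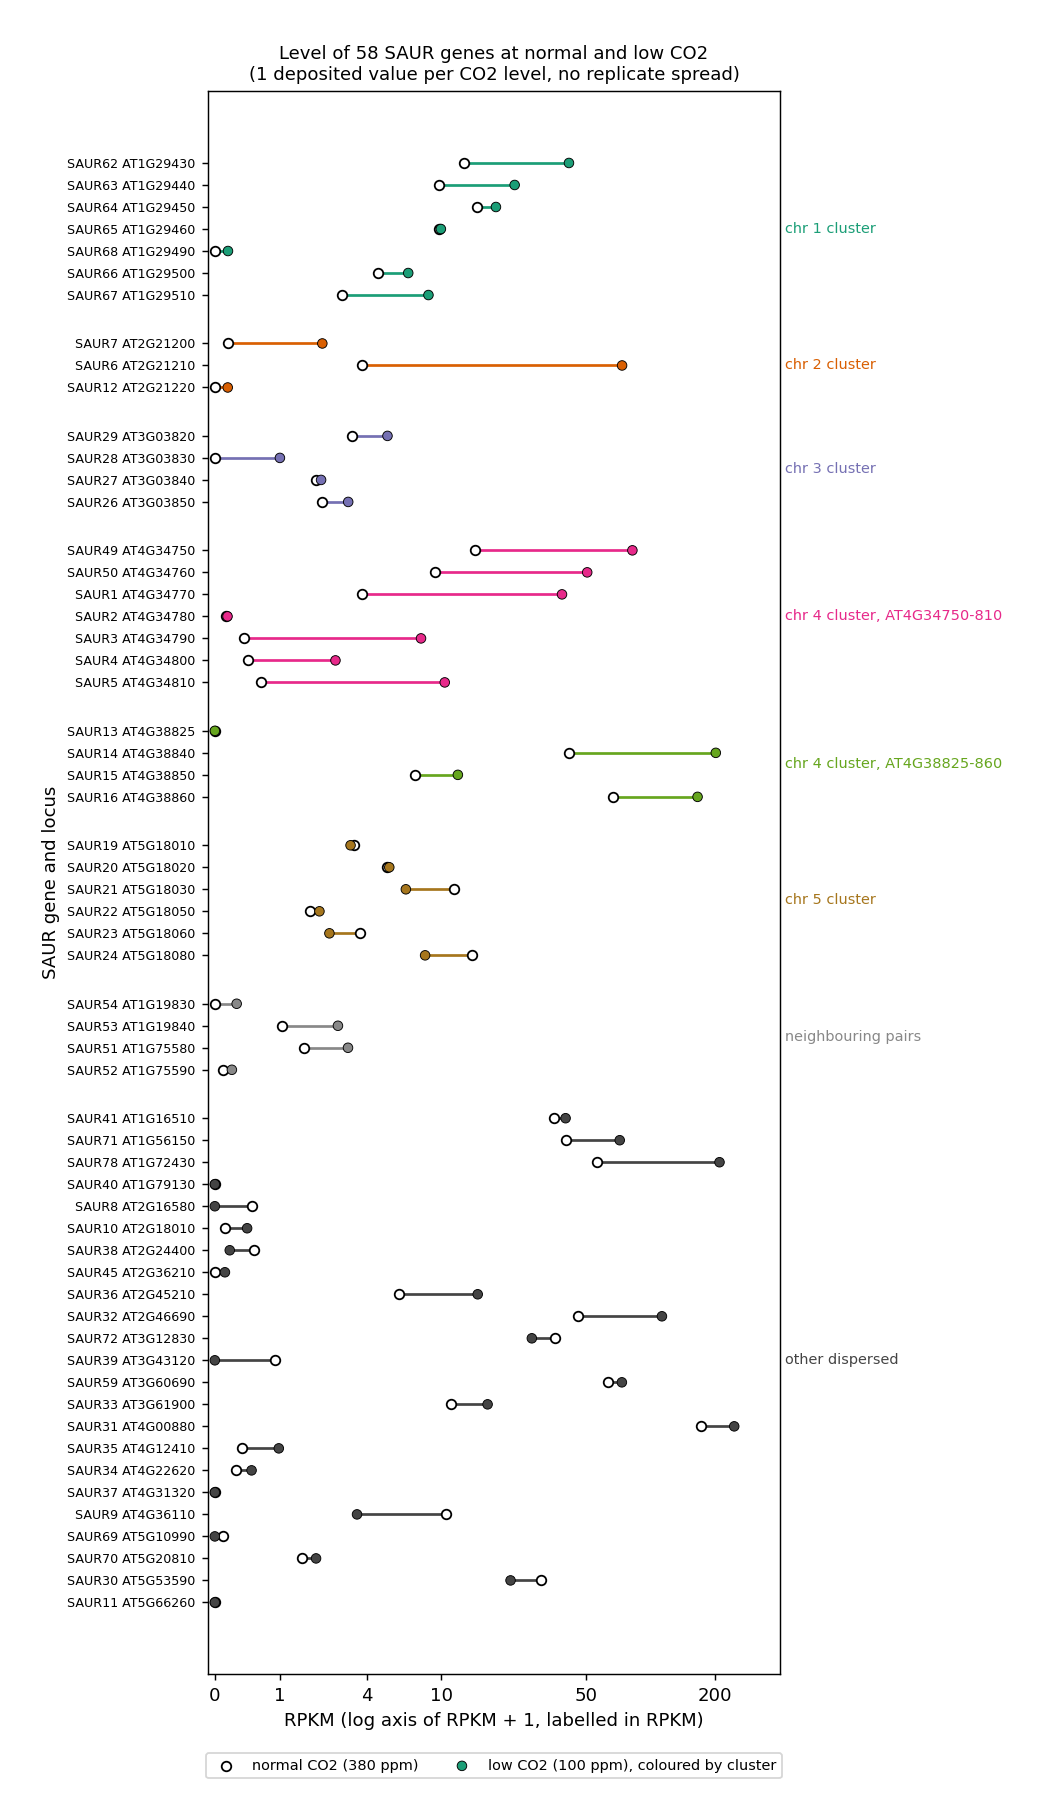
RPKM of the 58 SAUR genes under normal CO2 (open circles) and low CO2 (filled circles), joined by a line for each gene and grouped by cluster, on a log axis of RPKM + 1. The longest lines belong to the AT4G34 cluster of chromosome 4 and to SAUR6 on chromosome 2, where the filled circle lies to the right, and in the chromosome 5 cluster the filled circle lies to the left for 4 of 6 genes.

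The cluster of 7 genes from AT4G34750 to AT4G34810 on chromosome 4 was higher in all 6 counted members. Of these, SAUR3, SAUR4 and SAUR5 count only because of their low CO2 values. SAUR49 (AT4G34750), which promotes leaf senescence, stood at 14.8 RPKM under normal CO2 and 82.6 RPKM under low CO2, a ratio of 5.60 (4.74 to 6.64). SAUR50 (AT4G34760), a light-induced gene of cotyledons, measured 9.31 and 50.8 RPKM, 5.46-fold higher (4.25 to 7.09). SAUR1 (AT4G34770) went from 3.78 RPKM, or 30 reads, to 38.7 RPKM, or 264 reads, 10.2-fold higher (6.99 to 15.5). These members were well covered under low CO2, and their intervals lay wholly above 2-fold.

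The remaining members of that cluster were under 1 RPKM under normal CO2. SAUR3 (AT4G34790) had 3 reads under normal CO2 and 56 under low CO2 (0.364 and 7.90 RPKM), a ratio of 21.7 whose interval ran from 7.05 to 108. SAUR4 (AT4G34800) had 3 and 16 reads, a ratio of 6.20 (1.77 to 33.2). SAUR5 (AT4G34810) measured 0.624 and 10.4 RPKM, and its reads could not be recovered, so it has no interval. SAUR2 (AT4G34780), which lies between SAUR1 and SAUR3 on the opposite strand, had 1 read in each column and was not counted. A low value in SAUR2 thus stood between neighbours with large differences, 410 bases after SAUR1 and 1614 bases before SAUR3 in the reference. Summed over the 6 genes with recovered reads, the cluster had 282 reads under normal CO2 and 1508 under low CO2, 6.21-fold higher (5.47 to 7.08).

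The 3 genes on chromosome 2, AT2G21200 to AT2G21220, included the member with the largest log2 difference, SAUR6 (AT2G21210). SAUR6 was at 3.75 RPKM (28 reads) under normal CO2 and 74.0 RPKM (476 reads) under low CO2, 19.8-fold higher (13.5 to 30.04). Its neighbour SAUR7 (AT2G21200) had 1 read under normal CO2 and 12 under low CO2, a ratio of 13.9 with an interval of 2.06 to 596. The transcripts of SAUR6 and SAUR7 overlap on the same strand in the reference but their coding regions do not. SAUR12 (AT2G21220) was listed at 0 under normal CO2 and had 1 read under low CO2. The cluster therefore rests on 1 gene, which gave 476 of its 489 reads under low CO2.

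The 4 genes from AT4G38825 to AT4G38860, also on chromosome 4, held the most abundant tandem members. SAUR14 (AT4G38840) measured 41.6 and 201.5 RPKM, 4.85-fold higher under low CO2 (4.28 to 5.50), with 314 and 1310 reads. SAUR16 (AT4G38860), induced by light in cotyledons, measured 67.2 and 165.9 RPKM, 2.47-fold higher (2.23 to 2.74). SAUR15 (AT4G38850), the classic auxin-induced gene also called SAUR-AC1, measured 7.36 and 12.1 RPKM, with a ratio of 1.65 (1.13 to 2.42) that stayed within 2-fold. SAUR13 (AT4G38825) was listed at 0 in both columns. SAUR14 went from fewer reads than SAUR16 under normal CO2 to more under low CO2.

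On chromosome 1, 3 of 6 counted genes of the cluster AT1G29430 to AT1G29510 were at least 2-fold higher. SAUR62 (AT1G29430) measured 13.02 and 41.7 RPKM, 3.20-fold higher (2.63 to 3.92). SAUR67 (AT1G29510) measured 2.84 and 8.63 RPKM, 3.04-fold higher (1.98 to 4.75). SAUR63 (AT1G29440), which promotes elongation of hypocotyls and stamen filaments, measured 9.76 and 23.0 RPKM, 2.36-fold higher (1.86 to 3.01). Among the members these 3 genes are also each other's closest copies, SAUR63 being 89.4% identical to SAUR67 and 89.0% to SAUR62. All 3 have windows found at another place in the genome, as given above, and where those places lie was not recorded. SAUR64 (AT1G29450), at 15.2 and 18.7 RPKM, had a ratio of 1.23 (0.990 to 1.54). SAUR66 (AT1G29500; 4.66 and 6.77 RPKM) and SAUR65 (AT1G29460; 9.74 and 9.98 RPKM) lay within 2-fold too, and SAUR68 (AT1G29490) had no read under normal CO2 and 1 under low CO2. Because reads can be split between copies, they were also summed over the cluster. The sums were 597 under normal CO2 and 1011 under low CO2, a ratio of 1.97 (1.78 to 2.18). Which member of the cluster a read is given to does not change this sum. Dropping reads with several matches, or counting them at each place, would change it, and their treatment is not known. The sum leaves out SAUR61 (AT1G29420), next to the cluster, at 15.3 and 22.7 RPKM. Whether reads were split with places outside the sum was not tested.

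None of the 3 counted genes of the chromosome 3 cluster and none of the 6 of the chromosome 5 cluster passed 2-fold. The chromosome 5 genes have served as the model for SAUR action on PP2C.D phosphatases and proton pumps. SAUR24 (AT5G18080) was at 14.3 RPKM under normal CO2 and 8.29 RPKM under low CO2, a ratio of 0.581 (0.404 to 0.827). SAUR21 (AT5G18030) measured 11.6 and 6.58 RPKM, with a ratio of 0.566 (0.374 to 0.844). The intervals of SAUR19 (AT5G18010; 3.35 and 3.22 RPKM), SAUR20 (AT5G18020; 5.19 and 5.36 RPKM), SAUR22 (AT5G18050; 1.75 and 2.03 RPKM) and SAUR23 (AT5G18060; 3.64 and 2.37 RPKM) all included 1. Summed over these similar copies, 272 reads under normal CO2 and 164 under low CO2 gave a ratio of 0.701 (0.574 to 0.853), whereas the summed ratios of the other tandem clusters were above 1. The genes on chromosome 3, SAUR26 to SAUR29, several of which are known from heat-responsive growth, had 53 and 71 reads in all, a ratio of 1.56 (1.08 to 2.27). SAUR29 (AT3G03820) was the most abundant of them at 3.28 and 5.24 RPKM, with a ratio of 1.60 (0.916 to 2.82). SAUR26 (AT3G03850) followed at 2.11 and 3.11 RPKM, with a ratio of 1.47 (0.709 to 3.11), and SAUR27 (AT3G03840) at 1.93 and 2.08 RPKM. With intervals that include 1, no difference was detectable for these at this depth. SAUR28 (AT3G03830) was not counted, with no read under normal CO2 and 6 under low CO2, for which the lower 95% bound of the ratio was 1.37.

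**Figure D3:**
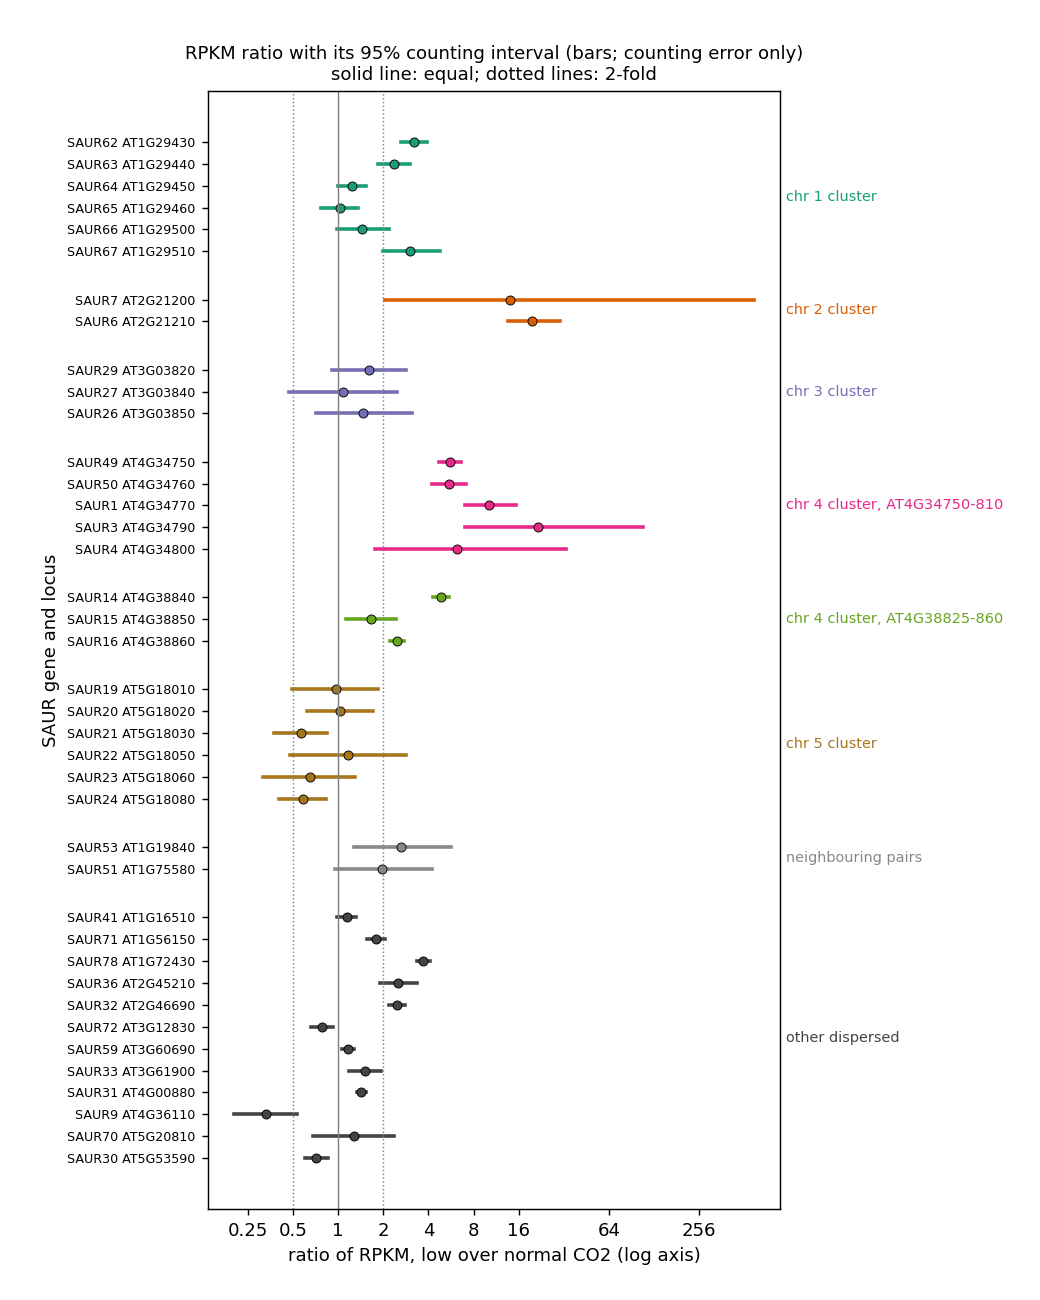
Ratio of RPKM at low over normal CO2 (points, log axis) with its 95% counting interval (bars) for the 39 counted SAUR genes with recovered reads, by cluster. Points of the AT4G34 cluster lie between 5.46 and 21.7, those of the chromosome 5 cluster between 0.566 and 1.16.

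Of 27 dispersed members 14 were counted, and 3 of them passed 2-fold upwards and 1 downwards. SAUR78 (AT1G72430), whose protein interacts with ethylene receptors, measured 56.6 and 209.6 RPKM, 3.70-fold higher (3.35 to 4.10). SAUR32 (AT2G46690) measured 45.9 and 113.4 RPKM, 2.47-fold higher (2.20 to 2.78). SAUR36 (AT2G45210), a gene also named SAG201 that promotes leaf senescence, measured 6.07 and 15.2 RPKM, 2.51-fold higher (1.90 to 3.35). The lower member was SAUR9 (AT4G36110), at 10.6 RPKM (84 reads) under normal CO2 and 3.51 RPKM (24 reads) under low CO2, 3.01-fold lower (1.89 to 4.96). Its interval reached inside 2-fold.

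The most abundant SAUR gene of the leaf, SAUR31 (AT4G00880), lay within 2-fold at 172.2 and 245.2 RPKM, with a ratio of 1.42 (1.33 to 1.52). SAUR59 (AT3G60690) measured 63.5 and 73.8 RPKM. SAUR41 (AT1G16510), which acts in cell expansion, measured 35.3 and 40.2 RPKM, and its relatives SAUR71 (AT1G56150) at 40.4 and 72.1 RPKM and SAUR72 (AT3G12830) at 35.7 and 27.8 RPKM. SAUR30 (AT5G53590) measured 30.8 and 22.0 RPKM, with a ratio of 0.713 (0.596 to 0.851). SAUR33 (AT3G61900; 11.3 and 17.0 RPKM), SAUR70 (AT5G20810; 1.52 and 1.92 RPKM) and the pair member SAUR51 (AT1G75580; 1.58 and 3.10 RPKM) also lay within 2-fold. The pair member SAUR53 (AT1G19840; 1.03 and 2.69 RPKM) lay within 2-fold only on the RPKM + 1 scale. The ratio of its RPKM values was 2.61 (1.28 to 5.66).

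The other 13 dispersed members were under a mean of 1 RPKM. SAUR11, SAUR37 and SAUR40 were listed at 0 in both columns, SAUR45 and SAUR54 at 0 under normal CO2 only, and SAUR8, SAUR39 and SAUR69 at 0 under low CO2 only. SAUR39 (AT3G43120) had 11 reads under normal CO2 and none under low CO2, a difference of which the exact 95% interval begins at 2.16-fold lower. SAUR8, SAUR10, SAUR34, SAUR35, SAUR38, SAUR52 and the remaining members had at most 10 reads in either column, and their intervals all reached inside 2-fold.

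Tandem members passed 2-fold in 4 of the 6 clusters. Of 26 counted tandem members 13 passed 2-fold upwards and none downwards, with a median of 0.91, and the dispersed members, with the counts above, had a median of 0.53. Among these 13, SAUR3, SAUR4, SAUR5 and SAUR7 were under 1 RPKM under normal CO2 and count only because of their low CO2 values. No dispersed member that passed upwards entered the count in that way. The medians of the clusters ran from -0.25 (chromosome 5) and 0.40 (chromosome 3) through 0.81 (chromosome 1) and 1.29 (AT4G38) to 2.56 (AT4G34) and 2.71 (chromosome 2), over 2 to 6 counted genes each. The last of these is the median of 2 genes and was 1.44 with no filter on low values, under the 2.41 of AT4G34 in that setting. The members of these clusters with at least 1 RPKM under normal CO2 had log2 differences of 2.41 (SAUR49), 2.33 (SAUR50), 3.05 (SAUR1) and 3.98 (SAUR6). Without the chromosome 5 cluster the tandem median was 1.33. With members of at least 1 RPKM under normal CO2 only, the tandem median was 0.50 and its difference from the dispersed median turned from 0.37 to -0.03. That difference was 0.79 among members with a mean of at least 5 RPKM, 0.80 without the chromosome 5 cluster and 0.79 without members that share 50-base windows, so it depends on which members enter. In summed reads, tandem members held 2135 under normal CO2 and 5768 under low CO2, a depth-scaled ratio of 3.14 (2.99 to 3.30). Dispersed members held 5148 and 7118 reads, a ratio of 1.61 (1.55 to 1.67). These sums weigh abundant genes most, and their bounds cover counting error only. Under low CO2, SAUR14, SAUR16 and SAUR49 gave 1310, 1144 and 814 of the tandem reads. SAUR31 and SAUR78 gave 1964 and 1638 of the dispersed reads.

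**Figure D4:**
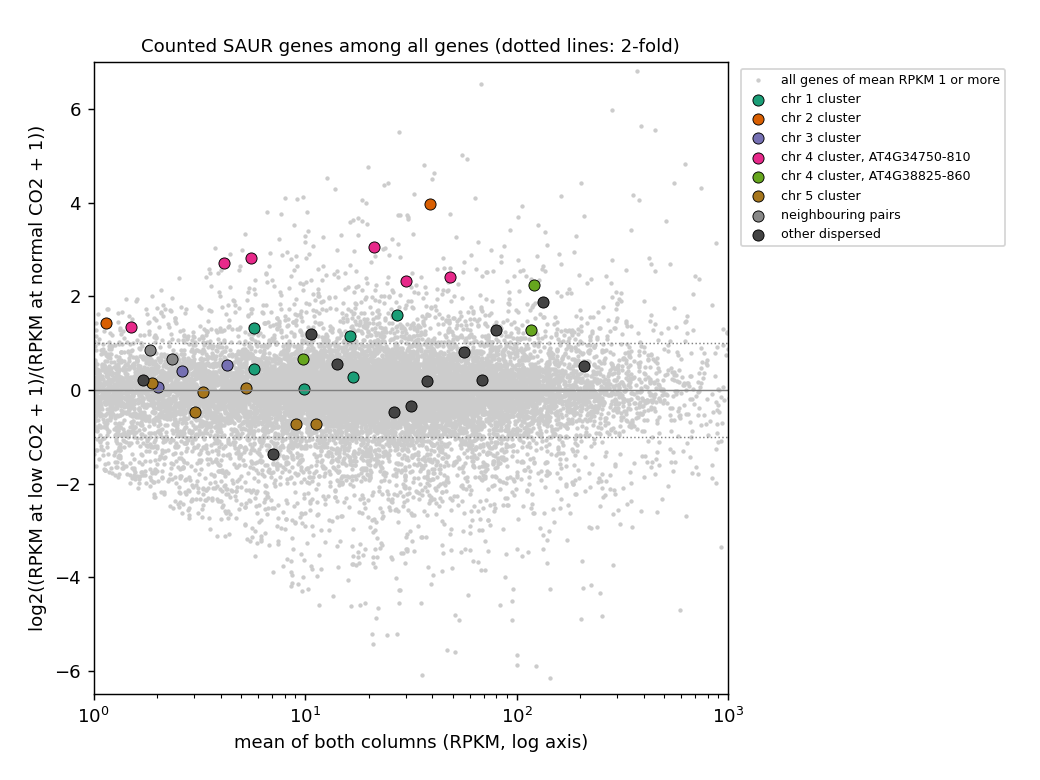
Log2 difference of low against normal CO2 on the RPKM + 1 scale (vertical) against mean RPKM (horizontal, log axis, with genes beyond its right end not drawn) for all counted genes (grey) and the 40 counted SAUR genes (coloured by cluster), with dotted lines at 2-fold. Among the SAUR genes 16 lie above the upper dotted line, SAUR6 highest at 3.98, and SAUR9 alone lies below the lower one at -1.36.

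Some close copies that lie apart in the genome had unlike levels, and 2 pairs chosen after their values were seen are shown. The closest member to SAUR16 was SAUR12 on chromosome 2, with 85.5% identical coding columns, and the closest to SAUR50 was the dispersed gene SAUR8, with 82.3%. The 120 bases below are the matching coding stretches (from base 130 of SAUR16, SAUR12 and SAUR50 and base 133 of SAUR8, RefSeq TAIR10.1), with capitals in the second gene of each pair where it differs from the first.
SAUR16: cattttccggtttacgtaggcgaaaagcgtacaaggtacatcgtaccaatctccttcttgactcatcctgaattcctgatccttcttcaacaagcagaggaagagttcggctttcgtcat
SAUR12: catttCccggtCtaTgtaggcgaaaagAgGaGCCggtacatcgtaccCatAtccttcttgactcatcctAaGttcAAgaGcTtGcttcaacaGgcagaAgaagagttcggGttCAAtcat
SAUR50: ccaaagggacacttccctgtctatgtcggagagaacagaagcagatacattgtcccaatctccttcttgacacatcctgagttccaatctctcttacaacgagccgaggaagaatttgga
SAUR8: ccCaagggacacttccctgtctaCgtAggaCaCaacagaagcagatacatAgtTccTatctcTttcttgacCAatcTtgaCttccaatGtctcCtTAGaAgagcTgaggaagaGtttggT
SAUR12 differs from SAUR16 at 23 of these bases and SAUR8 from SAUR50 at 22. SAUR16 had 538 and 1144 reads, whereas SAUR12 had none and 1. SAUR50 had 76 and 357 reads, whereas SAUR8 had 4 and none. None of these 4 genes shares a 50-base window with another place of the genome.

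The 250 bases before the annotated gene start were searched on both strands for the auxin response element TGTCTC, its variant TGTCGG and the letters CACGTG of a G-box. The response element TGTCTC lay in 7 of 31 tandem and 0 of 27 dispersed windows (10.9% of 27443 nuclear genes), in none of the 7 windows of the AT4G34 cluster and in SAUR7 but not SAUR6 on chromosome 2. Because the transcripts of SAUR6 and SAUR7 overlap on the same strand, the SAUR7 window lies at least partly inside the SAUR6 transcript. TGTCGG lay in 2 member windows (4.16% of genes) and CACGTG in 1, that of SAUR59 (6.49% of genes). The windows of 2 members with large differences, and of SAUR19 for contrast, are printed 5′ to 3′ on the gene's strand: SAUR6 chr2:9086030-9086279 (minus strand), SAUR14 chr4:18125560-18125809 (minus) and SAUR19 chr5:5963406-5963655 (minus), in TAIR10.1 coordinates found by locus. No source used here names the authors' build. Capitals mark CATGTG or its reverse complement CACATG, a hexamer of the E-box kind that was picked after these windows had been read.
SAUR6: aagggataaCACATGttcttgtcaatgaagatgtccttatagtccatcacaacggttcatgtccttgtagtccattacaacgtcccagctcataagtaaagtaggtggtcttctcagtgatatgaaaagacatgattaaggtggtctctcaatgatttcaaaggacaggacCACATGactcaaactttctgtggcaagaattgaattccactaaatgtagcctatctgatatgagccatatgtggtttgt
SAUR14: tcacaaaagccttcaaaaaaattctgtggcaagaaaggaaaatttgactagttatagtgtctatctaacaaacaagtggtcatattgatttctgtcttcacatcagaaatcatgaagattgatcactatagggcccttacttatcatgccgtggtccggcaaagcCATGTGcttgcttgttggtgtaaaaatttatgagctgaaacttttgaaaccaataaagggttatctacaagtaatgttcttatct
SAUR19: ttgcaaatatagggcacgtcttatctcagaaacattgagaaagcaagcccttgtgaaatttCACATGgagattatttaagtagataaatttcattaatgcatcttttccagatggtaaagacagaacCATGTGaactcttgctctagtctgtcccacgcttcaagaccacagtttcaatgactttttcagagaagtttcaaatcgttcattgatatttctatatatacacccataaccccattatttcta
CATGTG or CACATG lay in 22 of 31 tandem windows (71.0%) and 4 of 27 dispersed windows (14.8%), against 11.1% of all 27443 windows. It was in all 7 windows of the chromosome 1 cluster, all 4 of chromosome 3, 4 of 7 in the AT4G34 cluster, 3 of 4 in the AT4G38 cluster, 3 of 6 on chromosome 5 and 1 of 3 on chromosome 2. Tandem copies share ancestry, so these windows are not independent of each other. By CO2 difference, it lay in 9 of the 16 members that passed 2-fold upwards (56.2%) and in 11 of 23 counted members within 2-fold (47.8%). A match is a run of letters and not a shown binding site.

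Genes that act before or after SAUR proteins were taken from lists by pathway step. Of 59 genes in 7 lists of auxin and acid growth genes 58 were measured and 50 were counted. Of these 4 passed 2-fold upwards, 3 passed downwards and 43 did not pass, beside 6.07% upwards and 11.1% downwards among all counted genes, and their median log2 difference was -0.04. Among 6 auxin receptors AFB1 measured 10.1 and 21.4 RPKM, 2.11-fold higher (1.88 to 2.38), and the other 5 lay within 2-fold. All 5 activating ARF genes lay within 2-fold, ARF6 having the highest mean of both columns (25.4 and 37.6 RPKM). Of 10 other ARF genes ARF11 was 4.25-fold lower (3.54 to 5.13) and ARF18 2.49-fold lower (2.16 to 2.88). In auxin synthesis, 7 of 11 genes were counted. Of those that passed 2-fold, YUC9 was under 1 RPKM under low CO2 and counts only because of its normal CO2 value. TAR2, a tryptophan aminotransferase gene, measured 3.84 and 12.8 RPKM, 3.32-fold higher (2.71 to 4.09), and YUC9, a flavin monooxygenase gene, was 4.62-fold lower (2.40 to 9.75) on 59 and 11 reads. The 7 transport genes lay within 2-fold on the RPKM + 1 scale, with PIN4 having the highest mean of both columns (56.0 and 94.7 RPKM). For LAX3, at 1.34 and 2.95 RPKM, the ratio of the RPKM values was 2.20 (1.54 to 3.19).

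On the side of SAUR targets, 1 of 8 counted PP2C.D phosphatase genes passed 2-fold, PP2C.D3 (AT3G12620) at 29.2 and 70.3 RPKM, 2.41-fold higher (2.22 to 2.61). Of 7 counted proton pump genes AHA2 measured 64.4 and 150.2 RPKM, 2.33-fold higher (2.25 to 2.41). The most abundant pump gene, AHA1, outside the rule for naming and picked with its values in view, stood at 310.1 and 360.4 RPKM.

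Marker genes were those of a leaf. The mesophyll genes RBCS1A (10462 and 24999 RPKM) and RCA (6572 and 7210 RPKM) were the highest markers, and 2 of 4 mesophyll markers passed 2-fold upwards, RBCS1A and LHB1B1 (112.9 and 453.4 RPKM), with a list sum of 18353 and 33826 RPKM. Of 3 epidermal markers PDF1 passed, at 1.03 and 3.63 RPKM (ratio 3.53, 2.20 to 5.86), and the list summed to 111.0 and 146.5 RPKM. No guard cell marker of 3 passed (sums 74.3 and 98.6 RPKM) and no phloem marker of 2 (sums 470.3 and 406.4 RPKM). Markers of meristem or dividing cells summed to 2.29 and 4.04 RPKM over 5 genes, with STM listed at 0 and neither of the 2 counted genes past 2-fold. The 4 flower markers summed to 2.16 and 0.984 RPKM, nearly all of it AG, and the root hair markers COBL9 and RHD6 were listed at 0. Young, expanding tissue expresses many SAUR genes, and the part of these marker levels in the SAUR differences was not tested.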

How the data were processed

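Whole-leaf RNA sequencing covered 6 samples, 3 per CO2 level. Libraries were TruSeq RNA (version 2) from total RNA, per the labels' protocols. FastQC, TopHat and Cufflinks are listed among the tools in the submitters' processing notes. No source used here gives the genome build, annotation, counting, strand use, read length or pooling. The table deposited by the authors holds RPKM values in 2 columns named for the CO2 level, used here as the authors' value for each group.

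A limma test had been planned only for columns of single replicates, and there were none. Whole reads were recovered as RPKM × depth × (coding length less the 3 bases of the stop codon), with the depth at which values came out whole. Of 21010 genes above 0, 20247 (96.4%) were whole in both columns within 0.0001 reads, SAUR5 not among them. Recovery, the 2-fold rule and the interval were tried on simulated reads with counting error only, drawn at the depths and coding lengths recovered here. Replicate spread and reads with several matches were not simulated, so that trial cannot speak to them. Members and lists were chosen with earlier results of these data known. Every SAUR member could be named, and of other lists those past 2-fold or the most abundant gene. Names, coding sequences and gene starts came from RefSeq TAIR10.1, where AT5G01830 also bears the symbol SAUR21 but is an ARM repeat gene and was left out. Coding sequences were aligned globally with Biopython 1.88 in place of the planned protein alignment, and scipy 1.17.1 gave the intervals. Without strand, reads of genes that overlap on opposite strands cannot be told apart. Strand would not separate reads from the overlap of SAUR6 and SAUR7, which lie on the same strand. PP2C.D9 was not analysed here.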

Additional observations from a re-analysis of the deposited data

How the results depend on the processing

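No paired analysis was possible because the table holds 1 column per CO2 level and no column carries a replicate number; leaving out replicates was not run for the same reason. The count of 16 members at least 2-fold higher ranged from 11 (pseudocount of 5, or whole interval beyond 2-fold) to 17 over all alternatives. The count of 1 lower member became 0 with a pseudocount of 5 and by the interval rule. The AT4G34 median of 2.56 was 2.90 with a pseudocount of 0.1 and 1.71 with 5. The dispersed median of 0.53 was 0.63 after scaling to the same median, 0.33 with a pseudocount of 5, 0.22 (0.215) without a filter on low values and 0.36 with pairs counted as tandem. The AT4G38 median of 1.29 was 0.97 without a filter. The log2 ratio of the summed reads of that cluster, which is not a median and has no pseudocount, was 1.70. The difference of tandem and dispersed medians reversed to -0.030 with members of at least 1 RPKM under normal CO2, an alternative chosen after seeing the data, which drops SAUR3, SAUR4, SAUR5 and SAUR7. The same difference was 0.14 with a pseudocount of 5, 0.79 with a mean of at least 5 RPKM, 0.80 without the chromosome 5 cluster and 0.79 without members that share 50-base windows, the last 2 also chosen after seeing the data. The chromosome 2 median of 2.71 was 1.44 with no filter, 1.82 with a pseudocount of 5, 3.70 with 0.1 and 3.98 with a mean of at least 5 RPKM. The log2 ratio of its summed reads was 4.29. Over the alternatives that give a median, that of chromosome 1 ranged from 0.46 to 0.93 and that of chromosome 3 from 0.19 to 0.58. The median of chromosome 5 ranged from -0.72 to -0.08, of all tandem members from 0.47 to 1.33 and of all members from 0.31 to 0.74. The log2 ratios of summed reads were 0.98 for chromosome 1, 0.64 for chromosome 3 and -0.51 for chromosome 5. Median scaling and quantile normalization moved the median of all genes by 0.10 and kept every cluster median on its side of 0, with chromosome 5 at -0.18 and -0.08. Single members passed or left the 2-fold rule in 8 cases, 6 of them (SAUR4, SAUR7, SAUR9, SAUR36, SAUR63, SAUR67) with a pseudocount of 5, while SAUR53 passed with 0.1 and after quantile normalization. The few reads of short genes limit the least abundant members most.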

Other observations

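A further 21 loci that the reference names as SAUR genes are not among the 58 members, and 6 of them had a mean of at least 1 RPKM. Of these 3 passed 2-fold upwards, 2 downwards and 1 did not pass, beside 6.07% upwards and 11.1% downwards among all counted genes. SAUR76 was under 1 RPKM under normal CO2 and counts only because of its low CO2 value. SAUR55 was under 1 RPKM under low CO2 and counts only because of its normal CO2 value. Both therefore had to differ, so nothing further is read from these counts. SAUR60 (AT1G20470) stood at 6.64 and 14.4 RPKM, 2.17-fold higher (1.62 to 2.91). SAUR56 (AT1G76190) measured 1.28 and 4.09 RPKM, 3.20-fold higher (1.61 to 6.79). SAUR76 (AT5G20820), whose protein like that of SAUR78 interacts with ethylene receptors, had 5 and 19 reads, a ratio of 4.41 (1.59 to 15.1). SAUR79 (AT2G35290) measured 22.5 and 9.57 RPKM, 2.36-fold lower (1.80 to 3.11). SAUR55 (AT5G50760) had 33 reads under normal CO2 and 3 under low CO2, 9.47-fold lower with an interval of 2.97 to 48.2. SAUR61 (AT1G29420), next to the chromosome 1 cluster, measured 15.3 and 22.7 RPKM. Summed over the 20 of these loci with recovered reads, 520 and 503 reads gave a ratio of 1.12 (0.992 to 1.27), and 7 of the 21 loci were listed at 0 in both columns.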
